A study of Mus musculus with 2 samples.

Results

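The cells described here are lung monocytes, picked out of single-cell RNA-sequencing libraries of whole mouse lung by their own transcripts. A kept cell was taken when the summed unique molecular identifiers (UMIs) of Lst1, Ifitm6, Ms4a6c, Ms4a4c and Clec4a3 reached at least 10 per 10000 UMIs of that cell, a scale written p10k below. The same cell had to hold less than 5 p10k of C1qa, C1qb and C1qc together, less than 10 p10k of H2-Aa, less than 20 p10k of Ear2 and Chil3, less than 3 p10k of Cd79a and Cd79b, and less than 2 p10k of Cd3d, Cd3e and Cd3g. The members were thus chosen by their measured levels of these transcripts, which are given below as a description and not as a finding. Of 5506 kept cells 63 met all limits, 58 of them at low burden and 5 at high burden.

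Monocytes are short-lived blood phagocytes that leave the bone marrow and patrol or enter tissues. Classical monocytes carry surface Ly6C and the chemokine receptor CCR2, and they enter inflamed tissue and can mature there into macrophages or dendritic cells. Nonclassical monocytes carry little Ly6C, crawl along the inner wall of small vessels and need the nuclear receptor NR4A1. The lung holds many of both kinds in its capillary bed, beside alveolar macrophages in the airspace and interstitial macrophages in the tissue.

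Both libraries came from female FVB/NJ mice, 10 weeks of age at the time of a tail vein injection of Met-1, a mammary carcinoma cell line that goes back to an MMTV-PyMT tumor. The low-burden lung was taken at week 1 and the high-burden lung at week 3, with 1 mouse in each group. Burden, week, mouse and library therefore cannot be told apart. Both mice received tumor cells, so neither library is an uninjected control, and cells injected into a vein seed the lung without a primary tumor. The lungs were perfused with salt solution before collagenase digestion and red-cell lysis, and cells that had stayed in vessels cannot be told apart from cells in tissue.

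The low-burden library held 14041471 UMIs over 2668 barcodes, and the high-burden library held 52723173 UMIs over 3121 barcodes. After limits of 1000 to 7000 genes and at most 10% mitochondrial UMIs, 2473 and 3033 cells were kept. The libraries shared 11 barcodes, and none of these belonged to a selected cell. With 1 library in each group no test between groups was possible, so no p-value is given, and every interval is a 95% interval for counting error alone that leaves out differences between mice. Intervals of ratios treat the pooled UMIs as independent and so also leave out differences between cells.

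The selected cells made up 2.35% of kept cells in the low-burden library (exact binomial interval 1.79 to 3.02%, 58 of 2473). In the high-burden library they made up 0.165% (0.0535 to 0.384%, 5 of 3033). Among the selected cells and the gates on C1q, Ear2 and Chil3, and H2-Aa together, the last of which also holds epithelial cells, the shares were 6.74% (58 of 860) and 0.417% (5 of 1198). Both denominators put the high-burden share lower, and the counting intervals of the libraries were apart.

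The label of monocyte was set beside 6 marker genes, of which Lst1, Ifitm6, Ms4a6c and Clec4a3 are part of the rule and only Plac8 and Adgre4 are not. In the 58 low-burden cells all 6 had UMIs, and their sum, which the rule in part sets, ran from 10.1 to 193 p10k with a median of 73.7. Plac8, which the selection did not use and which encodes a small cysteine-rich protein of myeloid cells, was detected in 56 of 58 cells (96.6%), with a median of 30.2 p10k and a highest value of 128. The 5 high-burden cells had marker sums of 19.9, 15.4, 21.0, 26.0 and 11.01 p10k, with Adgre4 at 0 in all 5. Their Plac8 values were 0, 2.19, 1.68, 11.8 and 0 p10k. Plac8 reached 10 p10k in 53 of 58 low-burden cells and in 1 of 5 high-burden cells, so 4 of the 5 high-burden cells lacked the level seen in most low-burden cells. The low-burden cells are called monocytes below and the high-burden cells selected cells.

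**Figure D1:**
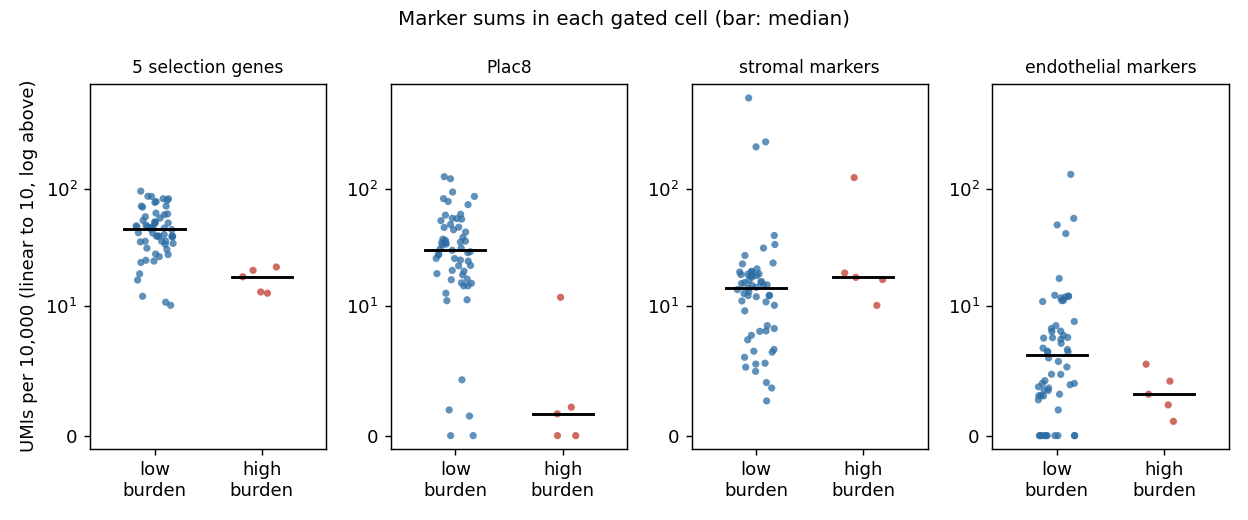
Marker sums in each selected cell, in UMIs per 10000 on an axis that is linear up to 10 and logarithmic above, for 58 low-burden and 5 high-burden cells, with the median as a bar. The low-burden median of Plac8 was 30.2, and 4 of the 5 high-burden cells lay at or below 2.19, and 3 low-burden cells reached 50 or more of stromal markers.

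UMIs of other cell types were present in the low-burden cells at levels that differed by list. Of the neutrophil list 7 of 8 genes had UMIs, with Ly6g at 0, and the sum ran from 0 to 182 p10k with a median of 2.01. Of the natural killer list Klrb1c and Prf1 were at 0, and the sum reached 418 p10k in 1 cell against a median of 0. Of the T cell list Cd3e, Cd3g, Cd4 and Cd8a were at 0, and all 6 basophil or mast cell genes were at 0. Thus 3 of 58 cells passed 50 p10k of S100a8 and S100a9, 1 passed 10 p10k of natural killer genes, 3 passed 50 p10k of stromal genes and 2 passed 50 p10k of endothelial genes. The C1q macrophage list had UMIs for 7 of 7 genes, with a median of 17.6 and a highest value of 213 p10k, and Apoe alone had a median of 15.0. The alveolar macrophage list, with Marco and Siglecf at 0, had a median of 9.49. The epithelial list had a median of 40.4 p10k, above that of Plac8, and 57 of 58 cells were at 20 p10k or more. Most of its UMIs were of Scgb1a1, a secretory gene of club cells (593 UMIs, seen in all 58 cells), and of Sftpc (251). The tumor transgene PYMT had no UMI in any of the 58 cells, and a count of 0 limits the share of cells with a UMI, not of cells expressing the gene, to at most 5.17% (3 counts of 58). One doublet check was made, by depth, and 1 cell held over 2 times the median UMIs.

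The 58 low-burden monocytes separated into classical and nonclassical cells with no cell near the border by the criterion given below. The classical score summed Ly6c2, Ccr2, F13a1 and Vcan, and the nonclassical score summed Treml4, Ace, Cd300e, Adgre4, Eno3, Spn and Pglyrp1. By the larger score 21 cells were classical (36.2%, interval 24.0 to 49.9%) and 37 were nonclassical (63.8%, 50.1 to 76.0%). The classical score was 0 in 31 of the 37 nonclassical cells, and the nonclassical score was 0 in 7 of the 21 classical cells. In classical cells the classical score ran from 3.11 to 58.1 p10k with a median of 18.5, and the nonclassical score did not exceed 4.29. In nonclassical cells the nonclassical score ran from 2.76 to 102 p10k with a median of 38.9, and the classical score did not exceed 7.21. A cell counted as near the border when its scores lay within a factor of 2 after 1 p10k was added to each, and 0 of 58 cells did. At the depth of these cells 1 UMI against 0 already lies outside that factor, so this count follows in part from depth.

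**Figure D2:**
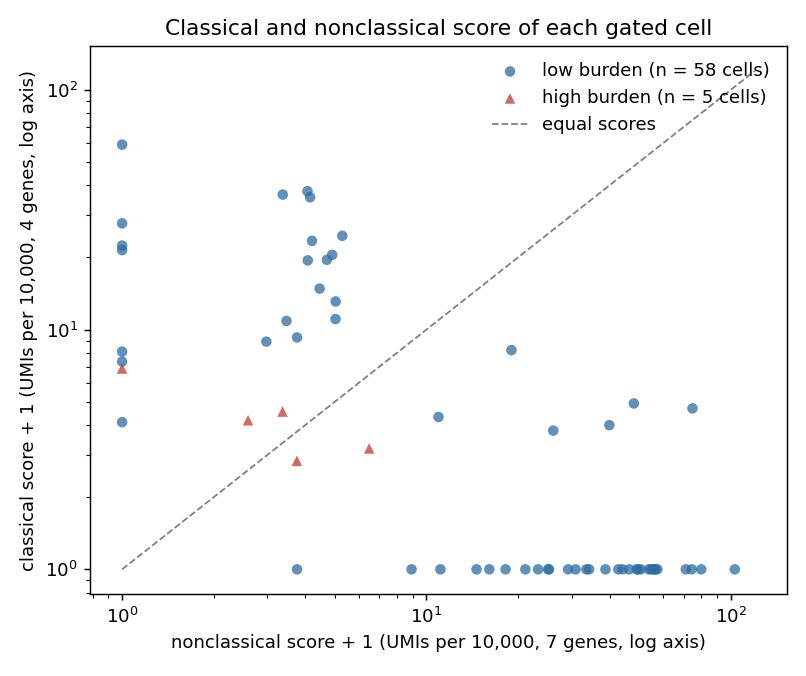
Classical score (y) against nonclassical score (x) of each selected cell, both in UMIs per 10000 plus 1 on log axes, with a dashed line at equal scores. The 58 low-burden cells fell into 21 above and 37 below the line with a gap between, and 3 of the 5 high-burden cells lay near it. The gap follows in part from depth, since a UMI is a larger step in shallower cells.

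Several genes of a score were seen in the same cell, so the split did not rest on a single transcript. With Ly6c2 alone at 5 p10k or more as the criterion, 12 of 58 cells were classical (20.7%). Of the 21 classical cells 20 held at least 2 of the 4 classical genes and 12 held at least 3. Of the 37 nonclassical cells 33 held at least 3 of the 7 nonclassical genes and 15 held at least 6. No classical cell held more than 2 nonclassical genes, and 1 nonclassical cell held 2 classical genes.

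Ly6c2, the gene of the Ly6C surface protein, gave 96 UMIs in classical and 4 in nonclassical cells, and it was detected in 19 of 21 and 4 of 37 cells. Ccr2, the receptor for CCL2 that draws monocytes out of the marrow, gave 31 UMIs against 1, in 14 of 21 and 1 of 37 cells. F13a1, the A chain of coagulation factor XIII, gave 37 against 2, in 19 of 21 and 2 of 37 cells. Vcan, a matrix proteoglycan, gave 7 UMIs in 4 classical cells and 0 in nonclassical cells. Ly6c2 has a near-identical neighbour, Ly6c1, and how reads shared by them were counted was not stated in the sources used here.

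On the nonclassical side Pglyrp1, an antibacterial peptidoglycan-binding protein, gave 189 UMIs against 6, in 34 of 37 and 6 of 21 cells. Treml4, a receptor that binds dying cells, gave 54 UMIs against 1 and was seen in 24 of 37 nonclassical cells. Eno3, a glycolytic enolase, gave 66 against 0, also in 24 of 37. Ace, the angiotensin-converting enzyme, gave 66 against 8, in 30 of 37 and 7 of 21 cells. Spn, which encodes CD43, gave 36 against 0, and Cd300e gave 28 against 0. All of these values follow from the split itself and carry no test.

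The promoters of the score gene with the most UMIs on each side are shown because these genes contribute more UMIs to the scores than any other. They are the 250 bases before a RefSeq start on GRCm38.p6, 5′ to 3′ on the strand of the gene, with each match to GAGGAAG, a core of PU.1 sites, or its reverse complement in capitals. PU.1, encoded by Spi1, is a master factor of myeloid cells. Ly6c2, for which RefSeq lists 2 starts, lies on chromosome 15 at 75108158-75111970 on the minus strand, and the window is chr15:75111972-75112221. Pglyrp1 lies on chromosome 7 at 18871331-18890459 on the plus strand, and the window is chr7:18884440-18884689, inside the longer GENCODE M21 gene model.
Ly6c2: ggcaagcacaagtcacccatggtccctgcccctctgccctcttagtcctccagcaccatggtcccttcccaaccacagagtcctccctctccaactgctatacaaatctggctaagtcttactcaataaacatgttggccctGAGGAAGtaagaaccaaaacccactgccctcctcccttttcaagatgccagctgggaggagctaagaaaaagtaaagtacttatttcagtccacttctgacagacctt
Pglyrp1: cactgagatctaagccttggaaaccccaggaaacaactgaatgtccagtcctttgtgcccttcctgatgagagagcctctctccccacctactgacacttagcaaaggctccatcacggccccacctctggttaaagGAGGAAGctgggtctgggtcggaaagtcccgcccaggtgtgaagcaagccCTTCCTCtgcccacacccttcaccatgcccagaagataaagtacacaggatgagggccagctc
The Ly6c2 window held 1 match and the Pglyrp1 window 2, so both sides of the split carried these letters. Of all 32851 promoters in the table, 10.6% held a match in the same window, as did 3 of 6 classical and 2 of 11 nonclassical list genes with an entry. A list gene counted when any of its starts had a match, which can raise the list shares against the share per promoter. These matches describe letters in the windows and say nothing of binding.

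Next, all genes were compared between classical and nonclassical low-burden cells by CPM, the UMIs of a gene per 1000000 UMIs of the summed cells. The pools held 84890 and 128505 UMIs, and 612 genes had at least 50 UMIs and were detected in at least 10% of either class. Of these, 29 were at least 2-fold higher in classical cells (4.74%) and 57 were at least 2-fold lower (9.31%). These shares are the background for the counts of list genes below, and the median log2 ratio over the 612 genes was 0.03. Since the scores that made the classes use genes of the same cells, all ratios are descriptive.

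Several genes with secreted products were higher in classical cells, though others such as Il1b and S100a8, given below, were lower. Lyz2, encoding lysozyme, had 34174 CPM in classical and 9790 CPM in nonclassical cells (log2 ratio 1.80, interval 1.71 to 1.90). Per cell it ran from 69.1 to 551 p10k with a median of 328 in classical cells, and from 0 to 352 with a median of 102 in nonclassical cells, so the ranges overlapped. Fn1, encoding fibronectin, was detected in 85.7% of classical and 10.8% of nonclassical cells (813 and 85.6 CPM, log2 ratio 3.25, 2.32 to 4.31). Without the 6 cells high in stromal, endothelial or natural killer genes the Fn1 ratio was 6.51. All 37 nonclassical cells held only 11 Fn1 UMIs, in 4 cells, with 72.7% of them in 2 cells. The value of 6.51 thus rests on very few nonclassical UMIs. Ccl9, a chemokine of myeloid cells, had a log2 ratio of 2.31 (1.69 to 2.98), and Ccl6 had 0.53 (0.17 to 0.90). Cd14, the lipopolysaccharide co-receptor, had 2.18 (1.45 to 2.97) and was seen in 71.4% against 35.1% of cells. Ranked in the low-burden library alone, a ranking chosen after the values were seen, the secreted factors Wfdc17 (2.79), Hp (2.43) and Tgfbi (2.22) stood beside Fn1 at the top.

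Of the S100, galectin, annexin and lysozyme list, 4 of 12 measured genes were 2-fold or more higher in classical cells and 2 were lower. The higher genes were Lyz2, S100a10 (1.54), Anxa1 (1.43) and Lgals3 (1.22), of which the annexin restrains inflammation and the S100 protein binds annexin A2. S100a6 (0.86) and S100a4 (0.64) leaned the same way and were detected in all 21 classical cells. The lower genes were S100a8 (-4.21, -6.52 to -2.61) and S100a9 (-3.07, -5.00 to -1.63), whose products form calprotectin. A single nonclassical cell gave 47.6% of the S100a8 UMIs of its class, and all 3 cells with 50 p10k or more of the pair were nonclassical.

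Nonclassical cells carried more of the genes for antigen display on class I molecules. All 5 measured genes of that list leaned to the nonclassical side, 3 by 2-fold or more, and the list median was a log2 ratio of -1.09. H2-K1 had a log2 ratio of -1.41 (-1.84 to -0.998), B2m had -1.26 (-1.45 to -1.08), and H2-D1 had -1.09 (-1.27 to -0.92). The 3 encode the heavy chains and the shared light chain of class I. Psmb8 and Psmb9, subunits of the immunoproteasome, had -0.51 (-1.18 to 0.12) and -0.44 (-1.37 to 0.43), with intervals that include 0. Summed over the list, class I genes ran from 42.8 to 168 p10k in classical cells and from 66.5 to 356 in nonclassical cells.

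Adhesion genes leaned to the nonclassical side as well, with 3 of 5 measured genes 2-fold or more lower in classical cells. Itgal, the alpha chain of the integrin LFA-1, had 82.5 CPM in classical and 444 CPM in nonclassical cells (-2.43, -3.81 to -1.29). Itgb2, its beta chain, had -1.36 (-2.25 to -0.55), and Itgb1 had -1.99 (-3.28 to -0.89). LFA-1 holds nonclassical monocytes to endothelium. Cd44, a hyaluronan receptor, had 0.43 (-0.15 to 1.014).

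**Figure D3:**
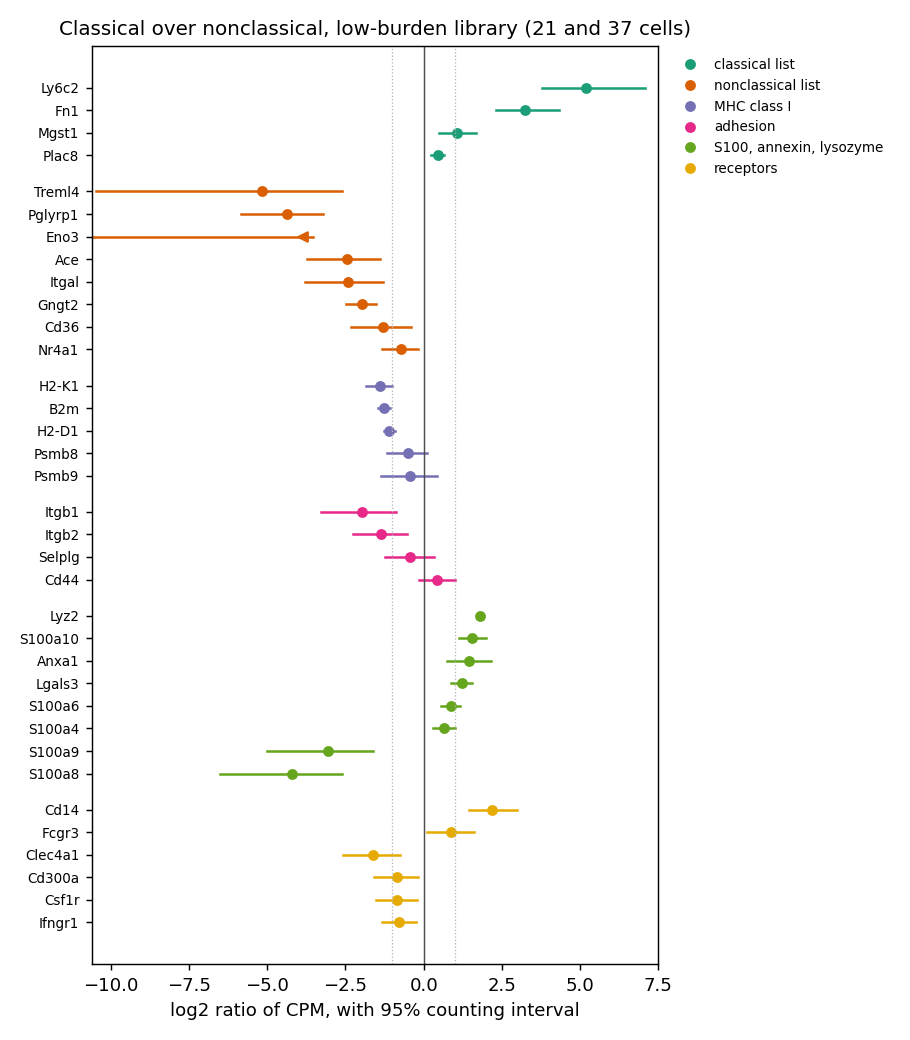
Log2 ratio of CPM, classical over nonclassical, for list genes of the low-burden library, with bars for the 95% counting interval, dotted lines at 2-fold and an arrowhead where a class had 0 UMIs and the value is a bound. Lyz2, Cd14 and Fn1 lay to the right and class I, Itgal and Itgb2 to the left, and S100a8 lay at -4.21.

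The genes ranked lowest in the low-burden library alone, a ranking chosen after the values were seen, included the following. Bcl2a1d and Bcl2a1a, members of a family of death inhibitors with near-identical copies whose reads are hard to tell apart, had log2 ratios of -4.16 (-7.24 to -2.23) and -3.99 (-7.07 to -2.06). Hes1, a repressor downstream of Notch, had 68 UMIs against 3 (-3.90, -6.22 to -2.30) and was detected in 64.9% and 9.52% of cells. Notch signalling is known to promote the nonclassical fate. Cd9, a tetraspanin, had -2.86 (-3.96 to -1.93), with 33 of 37 nonclassical and 5 of 21 classical cells positive. Ceacam1 had -2.60 (-4.29 to -1.28). These genes were spread over cells on the nonclassical side, where no cell gave more than 16.7% of the UMIs of any of them. Others were not, since a single cell gave 77.2% of the nonclassical UMIs of Timp3, 60.0% of Gsn, 59.2% of Hba-a1 and 50.0% of Ccl5. With the same 6 cells left out, Gsn moved from -2.66 to 0.28 and Timp3 from -2.91 to -0.39, while Hes1 stayed at -3.85.

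Of the myeloid transcription factor list 1 of 7 measured genes reached 2-fold, with a median log2 ratio of -0.69. Nr4a1, the receptor that nonclassical monocytes need, had 448 CPM in classical and 747 CPM in nonclassical cells (-0.74, -1.32 to -0.18) and was detected in 81.0% and 83.8% of them. Spi1 had -0.69 (-1.19 to -0.20), and Cebpb, needed for nonclassical survival, had -0.31 (-0.52 to -0.10) and was seen in all 58 cells. Klf2 and Klf4 had -0.29 and -0.76. Pou2f2 was that single factor (-1.01, -1.82 to -0.26). Irf8, which guides monocyte development, had too few UMIs for the comparison and was seen in 52.4% of classical and 29.7% of nonclassical cells.

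Of the chemokine and cytokine receptor list none of 3 measured genes reached 2-fold. Csf1r, the receptor for the monocyte growth factor CSF1, had a log2 ratio of -0.85 (-1.51 to -0.22) and was seen in 76.2% and 81.1% of cells. Cx3cr1, the fractalkine receptor, gave 12 UMIs in classical and 32 in nonclassical cells and was seen in 42.9% and 62.2% of them. Ifngr1 had -0.78 (-1.34 to -0.24). Of the Fc and pattern receptors, Cd14 was 2-fold or more higher and Clec4a1 (-1.62) was 2-fold or more lower of 6 measured. Fcer1g and Tyrobp, which pass on signals of activating receptors, were detected in all 58 cells with log2 ratios of -0.38 and 0.14.

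The summed UMIs of interferon response genes were high in a few classical cells. Only Ifi27l2a of the 24 interferon genes had enough UMIs for the comparison (log2 ratio 2.11, 1.63 to 2.61). The summed list gave 3675 CPM in classical and 1144 CPM in nonclassical cells. The 2 highest classical cells gave 44.6% of the classical UMIs, and the sum ran from 0 to 211 p10k with a median of 24.5, against 0 to 50.5 with a median of 8.60 in nonclassical cells. Ifit1 gave 8 UMIs in 2 classical cells and Cxcl10 gave 8 in 3, with none of either in nonclassical cells. The list sum was thus uneven among classical cells, and which interferon it reflects was not tested.

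The remaining lists differed in how far they separated the classes. Of 5 measured glycolysis and hypoxia genes none reached 2-fold, and the median log2 ratio was 0.04. Of 11 measured immediate early and stress genes 1 did, Nfkbia, an inhibitor of NF-kappaB (-1.14, -1.73 to -0.59), while Fos had 0.99 (0.72 to 1.26). Of the inflammatory products Il1b, encoding interleukin-1 beta, gave 127 UMIs in nonclassical and 53 in classical cells (-0.66, -1.15 to -0.19), detected in about the same share of each (67.6% and 66.7%). Thbs1 and Mmp8 were below the UMI minimum, with 18 UMIs against 1 and 12 against 1. Of the macrophage maturation list, Lgals3 (1.22) and Ctsd (1.09) were higher in classical cells and Ctsb (-1.06) was lower, of 5 measured. Mki67, a marker of cycling cells, had no UMI in the 58 cells, and Nos2, Arg1 and Il10 had none either. For each of these genes the share of cells with a UMI is thus limited to at most 5.17%.

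The low-burden monocytes were then set beside the C1q macrophage gate of the same library, which holds 57 cells with at least 5 p10k of C1q genes and the same limits on Ear2 and Chil3, the Cd79 genes and the Cd3 genes. Of 1353 genes with enough UMIs, 180 were 2-fold or more higher in monocytes (13.3%) and 135 were lower (9.98%). The gates differ in C1q genes, H2-Aa and the monocyte gene sum by definition. Of the monocyte lists 3 of 6 classical and 8 of 10 nonclassical genes were 2-fold or more higher, and none was 2-fold lower. Plac8 had 755 UMIs in monocytes and 8 in the gate (log2 ratio 6.98, 5.998 to 8.20), with 96.6% and 7.02% of cells positive. Ly6c2 (7.07, 4.56 to 12.39), Pglyrp1 (7.03) and Eno3 (6.47) lay in the same range, and Treml4 had 55 UMIs against 2. Ccr2 and Fn1, in contrast, had 0.38 (-0.37 to 1.13) and -0.21 (-0.63 to 0.21). Both were found mostly in classical cells, as given above, so these pooled ratios depend on the mix of classes. The 4 classical score genes together had 2014 CPM in classical monocytes, 54.5 CPM in nonclassical ones and 318 CPM in the gate.

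The macrophage gate carried more of nearly all maturation genes. Of 17 measured genes of that list 11 were 2-fold or more lower in monocytes and 1, Lgals3 (1.35), was higher. Apoe, the lipid carrier, had 2746 CPM in monocytes and 19550 CPM in the gate (-2.83, -2.96 to -2.71). Mrc1, the mannose receptor, had -3.52 (-4.87 to -2.43), and Pf4 had 1 UMI against 622. Class II genes were lower in all 5 measured cases, with Cd74 at -3.60 (-3.74 to -3.46), although H2-Aa, which the monocyte rule limits, belongs to the same pathway. Chemokines followed, with 6 of 8 measured genes 2-fold or more lower, among them Ccl2 (1 UMI against 102), Ccl12 (0 against 114, at least 4.82 lower on the log2 scale) and Cxcl2 (-2.04, -2.34 to -1.75). Of the listed chemokines Ccl6 alone leaned to monocytes (0.53), and Ccl5, which is not on the list, did so as well (155 UMIs against 19, 3.45). Ccl5 belongs to the natural killer list and was detected in only 22.4% of the monocytes. A large part of its nonclassical UMIs came from a single cell, as given above.

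**Figure D4:**
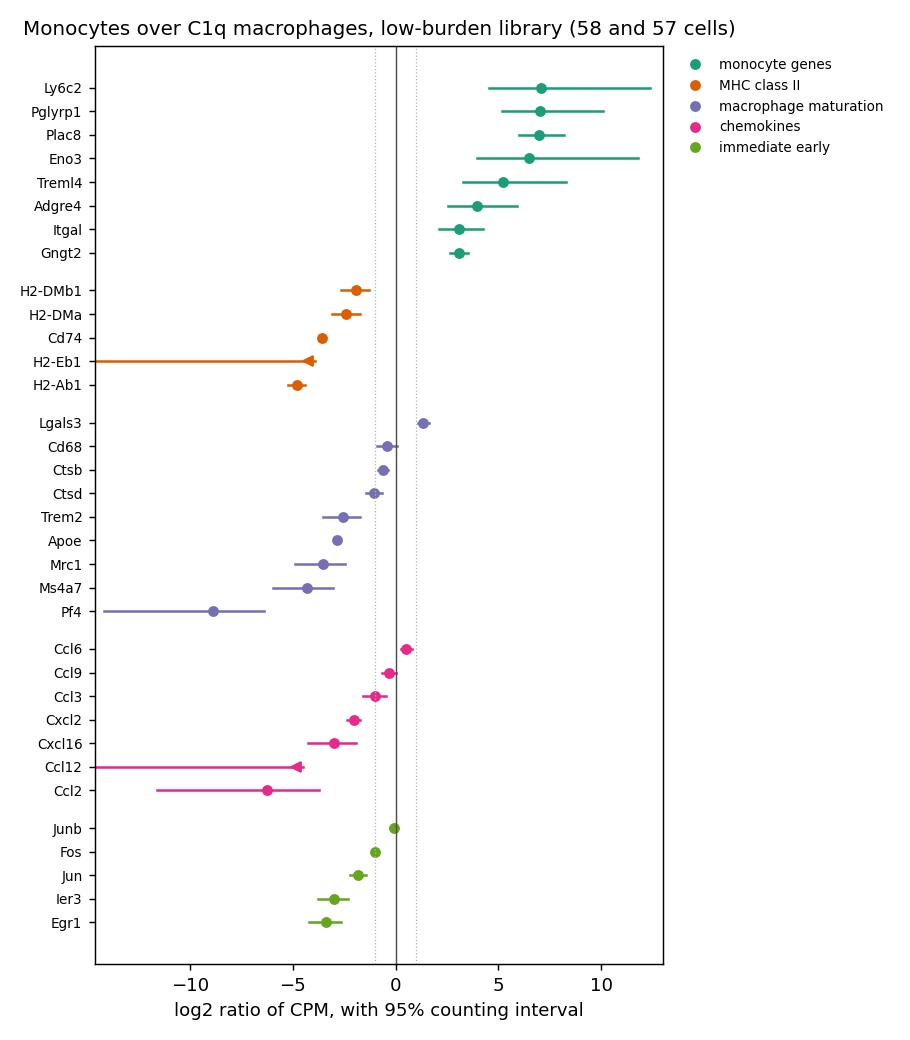
Log2 ratio of CPM, monocytes over C1q macrophages of the low-burden library, for list genes with bars for the 95% counting interval, dotted lines at 2-fold and an arrowhead where the monocytes had 0 UMIs and the value is a bound. Ly6c2, Pglyrp1 and Plac8 lay near 7 on the right, and class II, Apoe and Pf4 lay on the left, down to -8.86 for Pf4.

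Immediate early and stress genes leaned to the macrophage gate in all 17 measured cases, 8 of them by 2-fold or more, with a list median of -0.92. Egr1 had -3.38 (-4.18 to -2.67), Ier3 had -3.01 (-3.77 to -2.33) and Jun had -1.81 (-2.22 to -1.41), while Junb had -0.08. All of these are induced within minutes by many stimuli. Adhesion genes pointed the other way, with 4 of 7 measured genes 2-fold or more higher in monocytes, Itgal at 3.10 (2.13 to 4.23). Class I genes were higher in all 6 measured cases and 2-fold or more in 3, B2m with 1.15 (1.03 to 1.28). This lay mostly with nonclassical cells. The summed class I list had 20474 CPM in nonclassical and 9294 CPM in classical monocytes, against 8585 CPM in the gate. Il1b was higher too, with 844 against 182 CPM (2.21, 1.76 to 2.69), as were Cebpb (1.73, 1.54 to 1.91), Nr4a1 (1.76, 1.29 to 2.25) and Pou2f2 (2.37, 1.66 to 3.14).

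Against the alveolar macrophage gate of the low-burden library, 525 cells with at least 20 p10k of Ear2 and Chil3 and less than 5 of C1q, 442 of 4552 genes were 2-fold or more higher in monocytes (9.71%) and 877 were lower (19.3%). All 7 measured interferon genes were 2-fold or more higher in monocytes, with a median of 1.57, led by Irf7, the amplifier of interferon production (39 UMIs against 14, 4.64, 3.72 to 5.63). Of the chemokine and cytokine receptors 9 of 15 were 2-fold or more higher and 2 lower, among them Cx3cr1 (3.81, 3.10 to 4.55), Ccr2 (3.70) and Csf1r (2.61). The genes furthest on the other side were Plet1 (-7.46), Lpl, which encodes lipoprotein lipase (-7.04, -10.08 to -5.18), Ear10 (-6.79), Fabp1, which encodes a fatty acid-binding protein (-6.69), Atp6v0d2 (-6.49) and Slc7a2 (-6.16).

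The limits that kept cells out differed between the libraries. In the low-burden library 192 kept cells passed the monocyte gene sum, 168 remained after the C1q limit, 110 after H2-Aa, 69 after Ear2 and Chil3, 67 after Cd79a and Cd79b, and 58 after the Cd3 genes. In the high-burden library 640 passed the sum, 40 remained after C1q and 6 after H2-Aa. More high-burden cells thus passed the monocyte genes, and the C1q limit took nearly all of them.

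**Figure D5:**
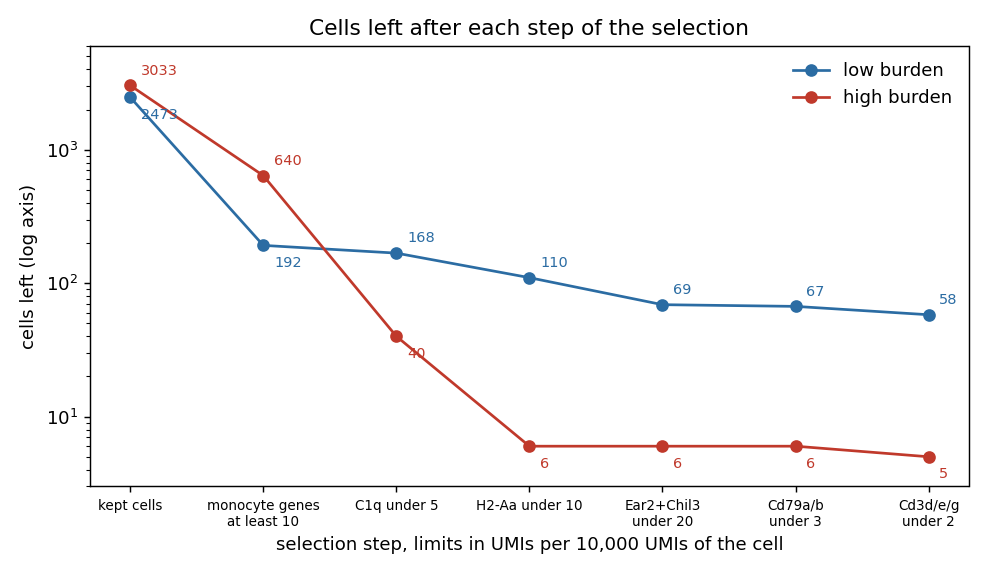
Cells left (log axis) after each step of the selection in each library, with limits in UMIs per 10000. The high-burden library fell from 640 to 40 cells at the C1q limit, where the low-burden library went from 192 to 168.

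The high-burden cells that failed the C1q limit alone held little or no Plac8, a marker outside the rule. These 171 cells had a median C1q sum of 117 p10k, a median Plac8 of 0 and a highest Plac8 of 8.48, and 8 of them held a Ly6c2 UMI. Their median Apoe was 45.1 p10k and their median Csf1r 4.49. The classical score was larger in 111 of the 171 cells and the nonclassical score in 30, and 30 were tied. Their median classical score was 1.98 p10k and their median nonclassical score 0.54. How many of the 171 are monocytes was not tested. Among all cells past the monocyte sum, Plac8 reached 10 p10k in 116 of 192 low-burden cells and in 21 of 640 high-burden cells. Of those 21 cells 19 were at or above the H2-Aa limit and 9 at or above the C1q limit. At high burden the monocyte genes of the rule were therefore mostly found in cells with C1q and without Plac8. The 32 high-burden cells that failed H2-Aa alone differed from these, with a median H2-Aa of 126 p10k. Of the 32 cells 9 had at least 10 p10k of Plac8, 12 held a Ly6c2 UMI and 27 had the larger classical score. How many of the 32 are monocytes was not tested.

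C1q transcripts were also found at a low level in cells that should lack them. In B cells of the high-burden library the C1q sum had a median of 2.91 p10k, and 5 of 24 were at 5 or more (20.8%, median depth 6008 UMIs). In T cells 9 of 51 (17.6%) and in endothelial cells 33 of 216 (15.3%) reached 5. In the low-burden library the medians were 0, and 0 of 38 B cells, 1 of 195 T cells and 3 of 608 endothelial cells did so. With a C1q limit of 20 p10k in place of 5, added after the data were seen, 8 high-burden cells and the same number of low-burden cells, 58, were selected.

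Of low-burden cells, 28 failed on H2-Aa alone and 35 on Ear2 and Chil3 alone. Of the 28 cells 21 had at least 10 p10k of Plac8, 10 had the larger classical and 18 the larger nonclassical score. Of the 35 cells 15 had that much Plac8 and 8 held a Ly6c2 UMI, while their median of Ear1, an alveolar macrophage gene, was 16.3 p10k. Chil3 is also known from classical monocytes, and how many of the 35 are monocytes was not tested. The members nearest to the limits had a monocyte sum of 10.1 p10k, H2-Aa of 9.06 and Ear2 and Chil3 of 19.8. The cells just outside had 9.26, 10.1 and 23.0. For C1q the nearest values inside and outside were 3.19 and 133 p10k at low burden, against 4.73 and 6.45 at high burden.

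Depth differed as well. The lowest barcode held 2388 UMIs at low and 5163 at high burden, and low-burden monocytes had 2423 to 6613 UMIs with a median of 3291, against 4073 over all kept cells. B cells had medians of 3423 and 6008 UMIs. How many small cells of the high-burden lung lay under its higher floor was not tested. Fewer monocytes in the lung and fewer monocytes above that floor cannot be told apart here.

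The 5 high-burden cells had 8449 to 12549 UMIs and differed from one another. The first had 102 Apoe UMIs (81.3 p10k), 3.19 p10k of C1q and 4 Mki67 UMIs. The second had 906 p10k of S100a8 and S100a9 and 978 p10k of the neutrophil list. The third had 43.7 p10k of Apoe and 4.20 of Ccr2. The fourth had 125 p10k of stromal markers, 33.1 of Dcn and 131 of epithelial markers. The fifth had no Plac8, 27.5 p10k of Spp1 and 11.9 of Apoe. PYMT UMIs were present in 3 of the 5. The C1q macrophage list stood at 101, 5.48, 55.4, 14.2 and 19.3 p10k in the 5 cells, and the epithelial list was above 20 p10k in all of them.

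Ly6c2 was 0, 2.19, 0, 1.18 and 0 p10k in the 5 cells, and Spn and Cd300e were 0 in all. Classical scores ran from 1.83 to 5.88 p10k and nonclassical scores from 0 to 5.48, so 3 cells were formally classical and 2 nonclassical, with 3 near the border. A UMI is a smaller p10k step in these deeper cells, so they meet the border criterion more easily than low-burden cells. The B cells, T cells and endothelial cells of the same library held PYMT UMIs in 29.2%, 37.3% and 51.4% of cells, against 0 in the low-burden library. The class of each of the 5 cells was thus carried by a few UMIs.

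Summed over the selected cells, 89 of 772 genes were 2-fold or more higher in the high-burden library (11.5%) and 182 were lower (23.6%). This balance depends on the filter on low counts, and without it 2132 genes were higher and 773 lower. The low-burden pool held 213395 UMIs and the high-burden pool 52922. Most of the highest ratios each came from a single cell, which was not the same cell for every gene. S100a8 and S100a9, for example, came from the second cell, with 468 and 358 UMIs. Lcn2, an iron-binding innate defence protein, had 433 UMIs at high and 0 at low burden (at least 9.18 on the log2 scale), with 97.7% of the UMIs in 1 cell. S100a8 (4.45, 4.12 to 4.80) and S100a9 (4.74) had 99.2% and 98.4% in 1 cell, and Retnlg had all of its UMIs in 1 cell. Rarres2 (4.87), Igfbp6 (3.56), Slpi (4.01) and Fabp5 (5.17) had between 93.1% and 98.6% in 1 cell. These ratios therefore describe single cells.

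The ratios that were spread over the 5 cells were those of Spp1, Mif, Rgs1 and Lgals1. Spp1, encoding osteopontin, had log2 ratios of 5.48 (4.55 to 6.58) in the selected cells and 2.92, 3.07 and 3.62 in B cells, T cells and endothelial cells. Lgals1, encoding galectin-1, had 2.97 (2.66 to 3.29) in the selected cells and 2.07, 1.52 and 2.54 in those gates. Mif, a cytokine, had 3.22 in the selected cells and 1.11, 1.38 and 1.72 in the gates. Spp1, Lgals1 and Mif were thus also higher in unrelated cells of the high-burden library, and the part of free RNA in these values was not tested.

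Among genes with UMIs in the 5 cells, Cd44 (-4.69), a hyaluronan receptor, and Adgre5 (-4.40) had the lowest ratios. Genes with 0 UMIs there were ranked by a bound, so their place in the ranking is not known. Eno3, Treml4 and Plac8 of the monocyte genes were among the 12 lowest in that ranking. Plac8 gave 755 UMIs (3538 CPM) in the 58 cells and 14 UMIs (265 CPM) in the 5 cells, 10 of the 14 from the fourth cell (-3.74, -4.62 to -2.99). In B cells, T cells and endothelial cells the Plac8 ratios were 1.12, 0.37 and -0.13. Of the nonclassical list 8 of 9 measured genes were 2-fold or more lower and Cx3cr1 was higher (1.08), with a list median of -2.93, and of the classical list 2 of 4 were, with a median of -1.82. Cd44, Adgre5 and Treml4 (-3.77) each had 1 UMI at high burden, with upper interval ends between -2.18 and -1.23. Tppp3 had 188 UMIs against 0 (at least 3.96 lower on the log2 scale). Other groups had 5 of 7 glycolysis and hypoxia genes 2-fold or more higher (median 1.12) and 5 of 7 transcription factors 2-fold or more lower (median -1.69), against the background shares above. Since 4 of the 5 cells lacked the Plac8 level of most low-burden monocytes, these ratios are not read as a change within monocytes. Whether the 5 cells are monocytes was not tested.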

How the data were processed

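Whole-lung cells of 1 low-burden and 1 high-burden mouse were measured with droplet single-cell RNA-sequencing. The deposited matrices hold whole UMI counts per gene and cell, made by the authors with Cell Ranger 2.0.2 on mm10 with the PYMT sequence appended, per the submitters' processing notes and the methods of the study, which also used Seurat. Whether the counts were taken before depth was evened out between libraries is not given in the sources used here. Cells with 1000 to 7000 genes and at most 10% mitochondrial UMIs were kept, and no doublet caller was run. The selection rule, the members and the 16 gene lists were chosen with earlier results of these data known.

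UMIs were summed over cells and scaled to CPM. Genes needed 50 UMIs over both pools and detection in 10% of cells of either pool, and a difference was counted at 2-fold. Intervals are 95% exact Poisson, Clopper-Pearson or conditional binomial intervals. They cover counting error only, since each group has 1 library, and no p-value was computed. Those of ratios rest on UMIs pooled over cells and leave out differences between cells. A pool with 0 UMIs was set to a floor of 3 counts over the pool. Genes named were the 12 highest and 12 lowest ratios between libraries, the 10 highest and lowest between classes and against the C1q gate in both libraries, and list genes. Rankings in the low-burden library alone were chosen after the values were seen. Promoters came from RefSeq (GRCm38.p6) and gene coordinates from GENCODE M21. Some genes that this rule picks are not reported here. The scripts were tested on simulated counts. Python 3.11.15, NumPy 2.4.6, pandas 2.3.3, SciPy 1.17.1 and Matplotlib 3.10.9 were used.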

Additional observations from a re-analysis of the deposited data

How the results depend on the processing

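The shares of kept cells (2.35% low, 0.165% high), the classical shares (36.2% low, 60% high) and the counts of genes 2-fold higher (89) and lower (182) at high burden were recomputed under each alternative, and 17 values moved while 74 stayed near. Of gene ratios and list medians 169 moved, 23 reversed and 487 stayed. Causes were not tested. With a monocyte sum of 20 p10k the high classical share was 100%, and S100a9 (-0.49), S100a8 (-0.55), Slpi (-0.25) and Igfbp6 (-0.20) reversed. With an Ear2 and Chil3 limit of 100 p10k the low share was 3.11%. With a C1q limit of 2 only the second high-burden cell remained (1.10 p10k of C1q), which is high in the neutrophil list. The high share was then 0.0330% and its classical share 0%. Slpi (-0.24), Eno3 (0.11), Timp3 (0.0582), Cd36 (0.16), Treml4 (0.32) and the cell division median (-0.10) reversed. With an H2-Aa limit of 3, 53 genes were higher, and S100a9 (-0.35) and S100a8 (-1.98) reversed. At 2000 UMIs per cell 49 genes were higher and 112 lower, and Rarres2 (-2.19) and Igfbp6 (-0.32) reversed. Without cells holding 20 p10k of another compartment, which takes 57 of 58 low-burden cells through the epithelial list, mostly Scgb1a1 and Sftpc, the low share was 0.0404% with a classical share of 0%, and the high share was 0%. With Ly6c2 alone the classical shares were 20.7% and 0%. With no filter on low counts 2132 genes were higher and 773 lower, and at 200 UMIs 14 and 32. Within classical cells Ccl5 (0.63) reversed, and within nonclassical cells Rarres2 (-0.43) and Igfbp6 (-0.0546) did. Chosen after seeing the data, C1q and H2-Aa limits of 20 and 40 gave a high share of 0.396%, and leaving out cells high in stromal, endothelial or natural killer genes reversed Slpi (-0.76) and Igfbp6 (-1.12). Without the cell with the most UMIs of the gene, S100a9 (-0.15), S100a8 (-1.29), Slpi (-0.42) and Igfbp6 (-1.24) reversed.

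No paired analysis was possible because each group has 1 library. With 1 library a group, there was no replicate to leave out. The 5 high-burden cells limit every comparison between libraries to counting error in 52922 UMIs.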
